A study of Mus musculus with 6 samples.

Results

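The respiratory chain and the ATP synthase are described here as 97 genes of the 47561 rows counted in each library. The rule that picks the members uses gene symbols alone: the Nduf genes of complex I, Sdha to Sdhd of complex II, the Uqc genes of complex III, the Cox4 to Cox8 genes of complex IV, the Atp5 genes of complex V, and the 13 protein genes of the mitochondrial genome. Of these, 84 lie in the nuclear genome and 13 in the mitochondrial genome. A few subunits carry other symbols, among them Ndufab1 and Cyc1, and fall outside this rule. RNA had been sequenced from LT-HSCs (long-term hematopoietic stem cells), the rare marrow cells that maintain blood formation for life. They had been sorted from the bone marrow of control mice, whose genotype label is WT, and of knockout (KO) mice titled Piezo1 KO; the genotype fields of KO replicates 2 and 3 instead carry Piezo2 and Piezo3. Piezo1 is a mechanosensitive cation channel. There were 3 libraries per genotype. The labels give neither the age and strain of the mice, nor the allele, nor a Cre driver. Whether each library is from a different mouse is not stated, and p-values here therefore measure a spread that could be technical.

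Electrons from NADH enter the chain at complex I and those from succinate at complex II, pass through ubiquinone to complex III and through cytochrome c to complex IV, where oxygen is reduced. Complexes I, III and IV pump protons, and complex V, the ATP synthase, uses the returning protons to make ATP. Complexes I, III, IV and V are built from subunits of both genomes, while complex II is wholly nuclear encoded. LT-HSCs in the marrow are known for a low reliance on oxidative phosphorylation while quiescent and for a greater use of it when they divide and differentiate.

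Total counts lay between 59435258 and 64653956 per library. CPM below are counts scaled to the library total (counts per 1e6), adjusted by the trimmed mean of M values (TMM). All 10 LT-HSC markers examined were counted, with a summed level of 1025 to 1373 CPM in control and 924 to 1163 CPM in KO libraries. Piezo1 itself lay at 17.0, 7.02 and 24.3 CPM in control against 4.28, 7.99 and 9.46 CPM in KO, so that the library labelled control replicate 2 lay below 2 KO libraries. Its group was taken from its label. Control replicate 3 stood apart through granulocyte markers, whose 10 genes summed to 12233 CPM there, against 176 and 224 CPM in the other control libraries and 120.2 to 1176 CPM in KO. Erythroid markers, all 10 counted, summed to 2594 to 7626 CPM in control and 8259.8 to 26362 CPM in KO libraries, and megakaryocyte markers, 7 of 8 counted with Gp6 at 0, to 785 to 1054 and 1707 to 2524 CPM.

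No member differed between the groups at an adjusted p under 0.05 in edgeR's quasi-likelihood test over 16022 genes, and neither did any other gene. Of the 97 members 93 could be tested, since Cox6a2, Cox7b2, Cox8b and Cox8c had 0 counts in all 6 libraries. Among the 80 tested nuclear members the median log2 fold change (KO over control) was -0.067, and 49 were negative. Over all genes tested the median was 0.034, and 47.8% were negative. At an unadjusted p under 0.05, 4 nuclear members were lower in KO, which is 5% of those tested against 5.59% of all genes, and 0 were higher, against 5.44% of all genes. The 13 mitochondrial members had a median of 0.19, 9 of them were positive, and 0 passed the unadjusted threshold in either direction. In the test of all genes the lowest adjusted p of a nuclear member was 0.305, and that of a mitochondrial member was 0.455. DESeq2, with its own filter, called 3 nuclear members lower and 0 higher at its adjusted threshold, where it called 2.37% of 16382 genes lower and 2.28% higher.

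**Figure D1:**
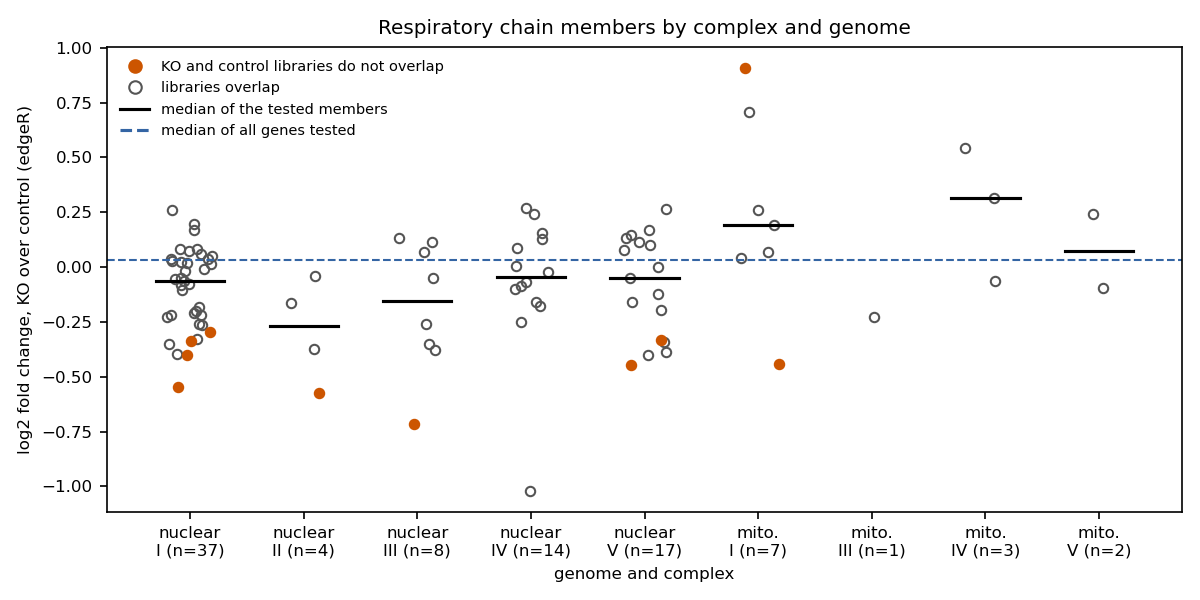
Log2 fold change, KO over control (edgeR), for each of the 93 tested members, by genome and complex; filled points mark members whose 3 KO libraries do not overlap the 3 control libraries, black bars are medians and the dashed line is the median of all genes tested. Nuclear members centre between -0.27 (complex II) and -0.047 (complex IV), the 7 mitochondrial members of complex I centre at 0.19, and ND6 lies farthest above the line at 0.91.

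The nuclear median turned positive without control replicate 3, and also with all libraries kept and offsets for length and GC content (0.038). Its size changed with control replicate 2 as well. With each gene centred on its average of the 6 libraries, the median deviation of the nuclear members (log2) was 0.0079, -0.33 and 0.37 in control against 0.053, 0.021 and -0.14 in KO. Control replicate 2 was the lowest and control replicate 3 the highest of the 6, with all KO libraries between them. Without control replicate 3 the median log2 fold change was 0.14 with 28 negative members, and without control replicate 2 it was -0.23 with 73 negative. The median of the nuclear members thus lay within the spread among the control libraries in every KO library.

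The KO libraries lay below all control libraries in 8 nuclear members, which is 10% of those tested, and above them in 0; over all genes tested these shares were 8.76% and 10.7%. The 8 were Ndufa8, Ndufa9, Ndufa10 and Ndufs8 of complex I, Sdhd of complex II, Uqcrc1 of complex III, and Atp5c1 and Atp5d of complex V. The share is close to the background of all genes. For Ndufa8 and Ndufs8 the nearest libraries differed by little, with 272.3 CPM in control replicate 2 against 271.5 CPM in KO replicate 2 for Ndufa8, and 294.5 against 292.0 CPM in the same libraries for Ndufs8.

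Complex I, the NADH dehydrogenase, contributed 37 nuclear members with a median log2 fold change of -0.063, of which 23 were negative. The 7 nuclear core subunits, which carry the flavin and iron-sulfur clusters, were all negative, with a median of -0.30 and a range from -0.40 for Ndufv1 to -0.078 for Ndufs1. The 29 accessory subunits, which surround the core, divided evenly, with 15 negative and a median of -0.0099. Ndufa10, an accessory subunit of the nucleoside kinase fold, had 284, 227 and 234 CPM in control replicates 1, 2 and 3 and 176, 166 and 167 CPM in KO replicates 1, 2 and 3. All KO libraries lay below all control libraries, and the log2 fold change was -0.55 (SE 0.16), with an edgeR adjusted p of 0.305 and a DESeq2 adjusted p of 0.0129. Ndufa9, which sits between the matrix arm and the membrane arm, had 197, 166 and 196 CPM in control against 162, 117 and 144 CPM in KO. Its log2 fold change was -0.40 (SE 0.18) with an edgeR adjusted p of 0.471. Ndufa8, a subunit on the intermembrane-space side, had 326, 272 and 327 CPM in control against 242, 272 and 217 CPM in KO. Its log2 fold change was -0.34 (SE 0.16), with an edgeR adjusted p of 0.504.

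Among the core subunits Ndufs8, an iron-sulfur protein, had 325, 295 and 421 CPM in control against 291, 292 and 264 CPM in KO, and its log2 fold change was -0.30 (SE 0.18). Ndufs7, another iron-sulfur protein, had 402, 324 and 469 CPM in control against 335, 299.9 and 319 CPM in KO. Ndufs1, which carries iron-sulfur clusters in the matrix arm, had 123, 128 and 56.7 CPM in control against 99.6, 105 and 86.8 CPM in KO. The order of the control libraries differed between these genes: control replicate 3 was the highest of all libraries for Ndufs7 and Ndufs8 and the lowest for Ndufs1. Ndufv1, the flavin-binding subunit that oxidises NADH, had 236, 227 and 152 CPM in control against 193, 135 and 139.5 CPM in KO, and control replicate 3 lay among the KO libraries. Without that library Ndufv1 was among 7 nuclear members lower at an unadjusted p under 0.05, where 7.62% of all genes were lower. The highest log2 fold change among the nuclear complex I members was that of the accessory subunit Ndufa6, 0.26 (SE 0.20). It had 215, 177 and 251 CPM in control against 247, 301 and 221 CPM in KO. Ndufa4, named for complex I and since placed with complex IV, showed a log2 fold change of -0.054 (SE 0.21).

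Complex II, the succinate dehydrogenase shared with the citric acid cycle, had 4 members, all negative, with a median of -0.27. Sdhd, a membrane anchor that helps to hold the haem and the ubiquinone site, had 459, 361 and 484 CPM in control replicates 1, 2 and 3 and 350.2, 256 and 269 CPM in KO replicates 1, 2 and 3. The groups did not overlap, the log2 fold change was -0.57 (SE 0.19), and the adjusted p was 0.370 in edgeR and 0.0551 in DESeq2. Sdhb, the iron-sulfur subunit, had 421, 373 and 546 CPM in control against 314, 336 and 384 CPM in KO, and the groups overlapped in that KO replicate 3 lay above control replicate 2. Its log2 fold change was -0.38 (SE 0.19). Sdhc, the other anchor, had 247, 209 and 206 CPM in control against 212, 218 and 162 CPM in KO, and Sdha, the flavoprotein, 166, 242 and 191 CPM in control against 225, 172 and 184 CPM in KO. Their log2 fold changes were -0.16 (SE 0.18) and -0.043 (SE 0.20). Complex II kept a negative median under every setting tried, from -0.37 without control replicate 2 to -0.20 with offsets for length and GC content.

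Complex III, the cytochrome bc1 complex, had 8 nuclear members with a median of -0.15, 5 of them negative. Its 2 core proteins were both negative and its 5 small subunits had a median of 0.068. Uqcrc1, core protein 1, had 645, 624 and 520.2 CPM in control replicates 1, 2 and 3 and 468, 308 and 314 CPM in KO replicates 1, 2 and 3. The KO libraries lay below all control libraries, most clearly replicates 2 and 3. The log2 fold change was -0.71 (SE 0.21), with an adjusted p of 0.315 in edgeR and 0.0226 in DESeq2, and its unadjusted p was under 0.05 in each alternative fit. Uqcrc2, core protein 2, had 374, 324 and 248 CPM in control against 309, 225 and 208 CPM in KO, and KO replicate 1 lay within the control range. Uqcrfs1, the Rieske iron-sulfur protein that passes electrons on towards cytochrome c, had 322, 253 and 388 CPM in control against 279, 211 and 251 CPM in KO. Their log2 fold changes were -0.35 (SE 0.23) and -0.38 (SE 0.21). Of the small subunits, Uqcrh, the hinge protein, had 571, 433 and 719 CPM in control against 610.2, 698 and 579.9 CPM in KO and a log2 fold change of 0.13 (SE 0.21). Without control replicate 3 the complex III median was 0.17.

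Complex IV, the cytochrome c oxidase, had 18 nuclear members, of which 14 were tested, with a median of -0.047 and 8 negative. It had 0 nuclear members at an unadjusted edgeR p under 0.05, where each other complex had 1, and 0 with groups that did not overlap. Over all genes 5.59% were lower and 5.44% higher at that p. The KO libraries lay below all control libraries in 8.76% of all genes and above them in 10.7%. With 14 members tested, a count of 0 does not set complex IV apart. Its 10 supernumerary subunits had a median of -0.0091, from -0.18 for Cox5b to 0.24 for Cox6c. Cox4i1, the common form of subunit 4, had 1001, 852 and 1386 CPM in control against 1069, 1007 and 1009 CPM in KO and a log2 fold change of -0.070 (SE 0.20). Cox4i2, its low-abundance form known from lung and from the response to low oxygen, had 3.65, 4.70 and 11.1 CPM in control against 1.90, 3.44 and 4.28 CPM in KO. That gave the lowest nuclear value, a log2 fold change of -1.02 (SE 0.69) with an edgeR adjusted p of 0.662, and without control replicate 3, the highest library, it was -0.38. Cox6b2, a form of subunit 6b known from testis, had 72.3, 74.99 and 154 CPM in control against 101, 80.1 and 71.6 CPM in KO. The common form Cox6b1 had 803, 595 and 1102 CPM in control against 826, 881 and 750.2 CPM in KO. Cox6b2 was likewise highest in control replicate 3.

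Of the muscle forms of complex IV subunits, Cox6a2 and Cox8b had 0 counts in every library, and Cox7a1 lay at or below 1 CPM, with 0, 0.996 and 0.395 CPM in control against 0, 0.332 and 0.914 CPM in KO. The testis forms Cox7b2 and Cox8c also had 0 counts. A count of 0 allows up to 3 counts per library, or 0.0440 to 0.0539 CPM, for counting error only. Their common partners were abundant and overlapped between the groups: the log2 fold changes were -0.085 (SE 0.28) for Cox6a1, 0.087 (SE 0.20) for Cox7a2, 0.0064 (SE 0.23) for Cox7b and 0.13 (SE 0.21) for Cox8a. Cox8a, a small membrane-spanning subunit, had the highest nuclear level per length, with mean levels of 1726 CPM per kilobase in control and 1885 in KO. Cox6c2, which RefSeq lists as a pseudogene and which may share reads with Cox6c, had 13.1, 7.87 and 16.5 CPM in control against 14.8, 16.3 and 14.1 CPM in KO; it had the highest nuclear log2 fold change, 0.27 (SE 0.38), and is uncertain for that reason.

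Complex V had 17 nuclear members with a median of -0.049, 9 of them negative. The 5 subunits of F1, the catalytic head in the matrix, were all negative with a median of -0.34, whereas the 5 nuclear membrane subunits were all positive with a median of 0.11, the lowest being 0.00012 for Atp5j2. Atp5c1, the gamma subunit that turns inside the head, had 835, 724 and 891 CPM in control replicates 1, 2 and 3 and 648, 611 and 537 CPM in KO replicates 1, 2 and 3. The groups did not overlap, the log2 fold change was -0.45 (SE 0.15), and the adjusted p was 0.374 in edgeR and 0.0325 in DESeq2. Atp5a1, the alpha subunit, had 816, 914 and 634 CPM in control against 669.8, 538 and 583 CPM in KO, and KO replicate 1 lay above control replicate 3. Atp5b, the beta subunit, which holds the catalytic sites, had 1219, 1445 and 880.2 CPM in control against 991, 839.5 and 965 CPM in KO. Atp5d, the delta subunit at the foot of the head, had 383, 377 and 411 CPM in control against 350.0, 327 and 254 CPM in KO. The log2 fold changes were -0.40 (SE 0.18) for Atp5a1, -0.34 (SE 0.20) for Atp5b and -0.33 (SE 0.17) for Atp5d. The epsilon subunit gene Atp5e showed a log2 fold change of -0.049 (SE 0.21).

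The ring of subunit c, through which protons pass, is encoded by 3 genes whose mature proteins are identical. Atp5g1 had 775, 543 and 1036 CPM in control against 686, 568 and 543 CPM in KO, and its log2 fold change was -0.39 (SE 0.25). Atp5g2 had 413, 363 and 475 CPM in control against 470.0, 451 and 421 CPM in KO and Atp5g3 had 321, 262 and 489 CPM in control against 416, 405 and 384 CPM in KO, with log2 fold changes of 0.10 (SE 0.16) and 0.17 (SE 0.24). As a share of the counts of these 3 genes, Atp5g1 made up 51.4, 46.5 and 51.8% in control against 43.7, 39.9 and 40.3% in KO. The share of Atp5g3 was 21.2, 22.4 and 24.5% in control against 26.4, 28.4 and 28.5% in KO. In both shares the groups did not overlap, lower in KO for Atp5g1 and higher for Atp5g3. The shares were looked at after the levels were known and carry no test.

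**Figure D2:**
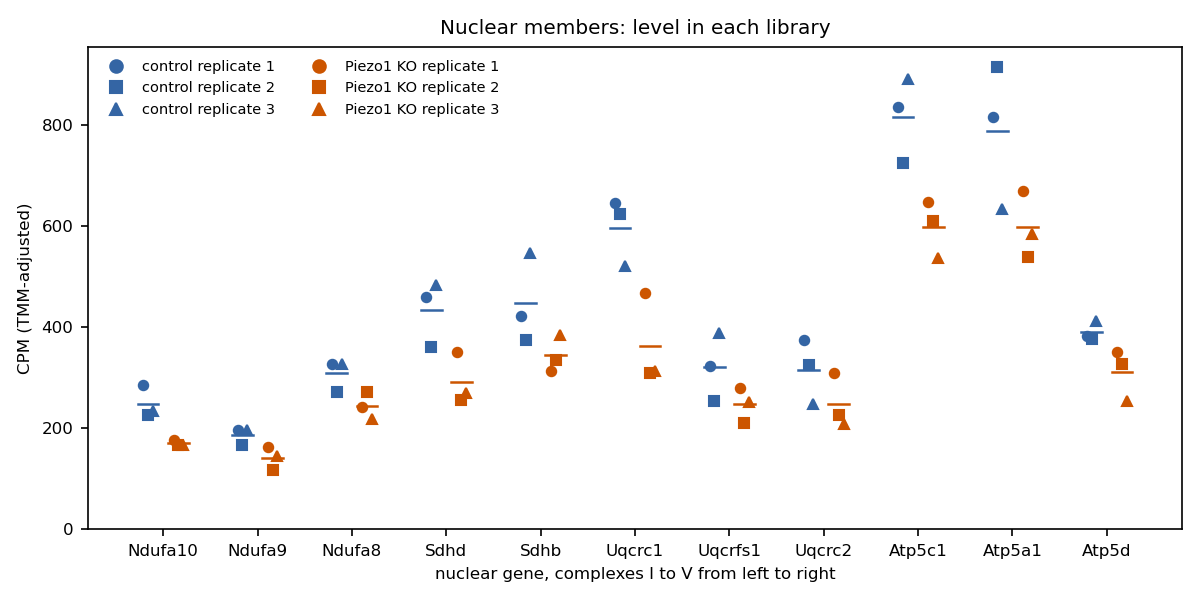
Level in each library (TMM-adjusted CPM, linear axis from 0) of 11 nuclear members of complexes I, II, III and V, with each library as a point and the group mean as a bar. The KO points lie below all control points for Ndufa10, Ndufa9, Ndufa8, Sdhd, Uqcrc1, Atp5c1 and Atp5d and overlap them for Sdhb, Uqcrfs1, Uqcrc2 and Atp5a1.

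Nuclear members with longer transcripts had the lower log2 fold changes. Among the 24 nuclear members with a transcript over 1000 bases, 21 were negative and the median log2 fold change was -0.30. Among the 56 shorter ones 28 were negative and the median was -0.0049. All 4 members with an unadjusted p under 0.05, Ndufa10, Sdhd, Uqcrc1 and Atp5c1, were in the longer set, and the core subunits of complex I and the larger F1 subunits belong mostly there as well. Over the 80 nuclear members Spearman's rho between log2 fold change and length was -0.57, while over 14614 genes with a known length it was 0.22. These are correlations across genes, which are not independent replicates. The length of 1000 bases was chosen after the values were seen.

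Within single libraries the relation of the nuclear members to length took opposite signs inside the control group. Between length and a member's deviation from its own mean, rho was 0.57 in control replicate 1, 0.62 in control replicate 2 and -0.30 in control replicate 3. It was -0.39, -0.47 and -0.42 in KO replicates 1, 2 and 3. Control replicate 3 thus resembled the KO libraries in this measure, and the other control libraries stood apart. The shorter members had a median deviation (log2) of -0.40 in control replicate 2 and 0.39 in control replicate 3, and the longer ones 0.023 and 0.27. Over 14614 genes with a known length the same rho was -0.27, 0.098 and -0.13 in control replicates 1, 2 and 3. In KO replicates 1, 2 and 3 it was 0.10, 0.088 and 0.27. Its sign thus differed from that of the members in control replicate 1 and in all KO libraries. With offsets for transcript length and GC content fitted over all genes, the nuclear median moved from -0.067 to 0.038 with 37 of 80 negative. Those offsets were not fitted to the members' own relation to length. The fit with offsets again gave 4 nuclear members lower at an unadjusted p under 0.05, against 869 of 16022 genes. They were Ndufa10 and Uqcrc1 as before, with Atp5d and Ndufs7 in place of Sdhd and Atp5c1. The cause of the members' relation to length was not tested.

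**Figure D3:**
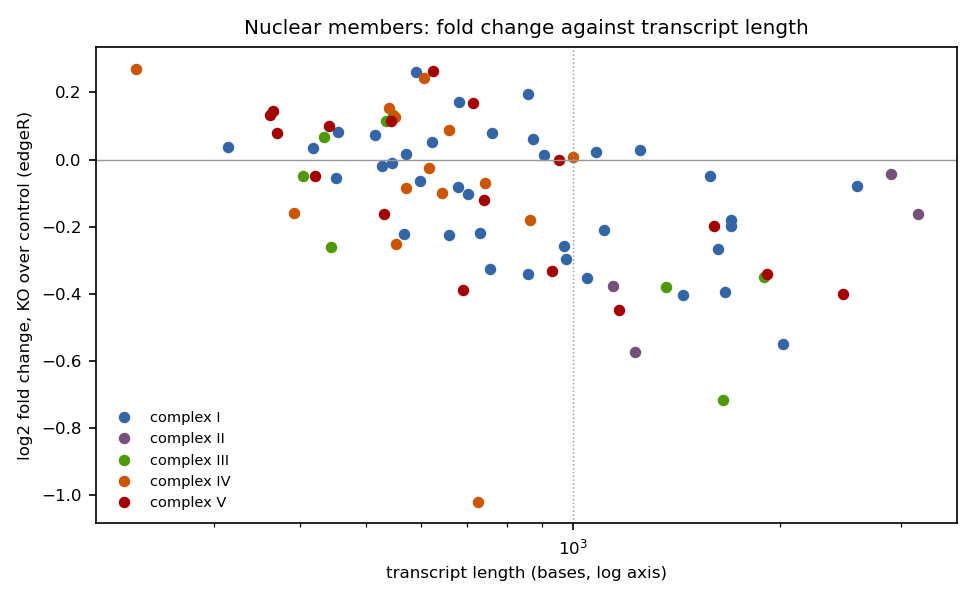
Log2 fold change, KO over control (edgeR), against transcript length in bases (log axis) for the 80 tested nuclear members, coloured by complex; the dotted line marks 1000 bases. Points right of the dotted line lie mostly below 0, with a median of -0.30, and those to its left spread around 0, with a median of -0.0049.

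Promoters of nuclear respiratory genes are known for sites of the factors NRF1, the ETS family and YY1. RefSeq promoters of GRCm38.p6, from 250 bases before to 50 after each gene's start, were matched for 68 of the members and searched on both strands. The palindromic NRF1 motif, spelled out in capitals in the windows of Uqcrc1 and Atp5g2, was present in 5 members, 7.35% against 1.07% of 27025 genes. The ETS motif CCGGAAG was present in 17, 25.0% against 9.93%, and the YY1 motif AAGATGGC in 10, 14.7% against 3.19%. The GC box GGGCGGG was in 33.8% against 27.9% and CCAAT in 44.1% against 41.1%. These motifs do not overlap one another in the windows shown. The 27025 genes were all those with a RefSeq promoter, expressed in these libraries or not, whereas most members were well expressed. Shares among expressed genes alone were not counted. A match is a description of the letters and not of binding. The 5 members with the NRF1 motif did not share a direction: the log2 fold changes were -0.71 for Uqcrc1, -0.085 for Cox6a1, -0.0099 for Ndufa11, 0.078 for Atp5k and 0.10 for Atp5g2. The windows below show the motif in capitals for 2 NRF1 matches that differ in fold change, Uqcrc1 and Atp5g2, and for 3 of the members whose groups did not overlap, Sdhd and Ndufs8 with the ETS motif (reverse complement) and Ndufa9 with the YY1 motif. All run 5′ to 3′ on the strand of the gene.
Uqcrc1, chr9:108936668-108936697, plus strand: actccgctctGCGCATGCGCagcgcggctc
Atp5g2, chr15:102671070-102671099, minus strand: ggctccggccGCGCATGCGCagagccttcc
Sdhd, chr9:50603877-50603906, minus strand: ccgtctcctgcCTTCCGGttcacgcttcag
Ndufs8, chr19:3912741-3912770, minus strand: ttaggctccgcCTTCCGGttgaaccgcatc
Ndufa9, chr6:126849097-126849126, minus strand: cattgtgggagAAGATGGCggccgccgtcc

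The 13 mitochondrial genes are transcribed as long precursors from 2 strands of 1 circular genome, and tRNAs between the genes mark the cuts. Of the protein genes only ND6 is encoded on the light strand, the minus strand of the annotation. Several neighbours overlap, and a read in an overlap can belong to either gene. ATP6 and COX3 share a single base, and COX1 runs into TrnS1 on the other strand. The overlaps of 3 pairs whose ratios are given below are shown on the plus strand of GRCm38 with the overlap in capitals. For ATP8 and ATP6 it spans 43 bases, for ND4L and ND4 it spans 7, and for ND5 and ND6, which face each other on opposite strands, it spans 14.
ATP8 and ATP6, chrM:7919-7977: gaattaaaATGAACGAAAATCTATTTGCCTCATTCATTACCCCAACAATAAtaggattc
ND4L and ND4, chrM:10151-10189: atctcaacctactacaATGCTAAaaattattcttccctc
ND5 and ND6, chrM:13536-13581: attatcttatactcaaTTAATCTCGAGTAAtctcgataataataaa
In the first pair the capitals open with the start codon of ATP6, and in the second with that of ND4. The sources used here do not give the counting strand, so reads of ND6 cannot be told apart from reads of the opposite strand. All 13 genes were counted on assembled gene models, whose ends are not known, and nuclear copies of mitochondrial sequence can share reads with them.

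Of all counts, the 13 genes took 3.07, 3.12 and 4.06% in control against 3.92, 3.96 and 3.57% in KO. Control replicate 3 had the highest share and the other controls the lowest, so that the groups overlapped. The nuclear members took 2.88, 2.59 and 3.34% in control against 2.98, 2.89 and 2.70% in KO. Per length, with the annotated coding length, the highest control means were those of COX1, ND1, CYTB and ATP6, at 6018, 5748, 5172 and 5108 CPM per kilobase, above the nuclear maximum of Cox8a.

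Among the 7 mitochondrial subunits of complex I, which form its proton-pumping membrane arm, 6 were positive with a median of 0.19. ND6, at chrM:13552-14070 on the minus strand, had 204, 313 and 642 CPM in control replicates 1, 2 and 3 and 739.9, 677 and 755 CPM in KO replicates 1, 2 and 3. All KO libraries lay above all control libraries, and the log2 fold change was 0.91 (SE 0.39), with an edgeR adjusted p of 0.455. ND2 had 525, 710.2 and 1375 CPM in control against 1515, 1280.5 and 1466 CPM in KO, with overlap because control replicate 3 lay above KO replicate 2, and a log2 fold change of 0.71 (SE 0.34). ND4L, the smallest of the 7, had 212, 173 and 189.6 CPM in control against 169, 145 and 108 CPM in KO, with all KO libraries below all control libraries and a log2 fold change of -0.44 (SE 0.20), adjusted p 0.485 in edgeR. ND6 and ND4L were the 2 of 13 mitochondrial genes with groups that did not overlap, 7.69% in each direction against 10.7% higher and 8.76% lower over all genes. The other 4 overlapped: ND1 had 4933, 4223 and 7345 CPM in control against 6092, 5939.7 and 4944 CPM in KO, ND3 had 219, 259 and 412 CPM in control against 404, 324 and 337 CPM in KO, ND4 had 1833, 2056 and 3129 CPM in control against 2839, 2681 and 2489 CPM in KO and ND5 had 1355, 1265 and 1579 CPM in control against 1637, 1414 and 1353 CPM in KO. Their log2 fold changes were 0.041, 0.26, 0.19 and 0.069.

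CYTB, the cytochrome b of complex III, had 6004, 4818 and 6927 CPM in control against 5444, 5332 and 4381 CPM in KO and a log2 fold change of -0.23 (SE 0.17). In complex IV, COX1, the subunit with the oxygen-reducing centre, had 8827, 8519 and 10546 CPM in control against 9169, 9547 and 8005 CPM in KO and a log2 fold change of -0.062 (SE 0.13). COX2, which takes the electron from cytochrome c, had 1237, 1377 and 2705 CPM in control against 2595, 2728 and 2425 CPM in KO and a log2 fold change of 0.54 (SE 0.30). COX3, which supports the core, had 2860.2, 2718 and 4327 CPM in control against 4192, 4357 and 3786 CPM in KO and a log2 fold change of 0.32 (SE 0.20). Control replicates 1 and 2 were the lowest 2 libraries for COX2 and COX3, and control replicate 3 lay with the KO libraries. In complex V, ATP6, subunit a of the proton channel, had 3032, 2802 and 4602 CPM in control against 4272, 4295 and 3774 CPM in KO, and ATP8 had 389, 299 and 436 CPM in control against 385, 388 and 277 CPM in KO. Their log2 fold changes were 0.24 (SE 0.21) and -0.097 (SE 0.21). The lowest edgeR adjusted p of these 6 was 0.563, that of COX2.

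Control replicate 3 had the highest sum of granulocyte markers. Without it, 7.86% of all genes were higher in KO at an unadjusted p under 0.05 in edgeR. Of the 13 mitochondrial genes 0 were lower at that p and 7 were higher. These were ND2, ND3, ND4, ND6, COX2, COX3 and ATP6, with log2 fold changes from 0.46 for ND4 to 1.49 for ND6 and adjusted p-values of 0.185 to 0.218. In the same fit 5 nuclear members were higher, namely Ndufb1, Cox6c, Cox7c, Atp5g3 and Atp5h, and 7 were lower, where 7.62% of all genes were lower. The 2 other control libraries then set the comparison alone. Granulocyte markers still differed there, with sums of 176 and 224 CPM in control against 120.2, 604 and 1176 CPM in KO replicates 1, 2 and 3.

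As shares of the counts of the 13 genes, which need no size factor, 5 genes were higher in all KO than in all control libraries and 2 were lower. Shares within 13 genes have no counterpart over all genes to read these counts against, and they move together, since they sum to the whole. CYTB made up 18.98, 16.3 and 15.7% in control against 13.8, 13.6 and 12.8% in KO, the clearest of the lower shares. ND4L, at the low end, made up 0.671, 0.585 and 0.429% in control against 0.428, 0.371 and 0.318% in KO, and control replicate 3 and KO replicate 1 were almost equal. COX2 made up 3.91, 4.66 and 6.12% in control against 6.58, 6.97 and 7.11% in KO. COX3 made up 9.04, 9.20 and 9.79% in control against 10.6, 11.1 and 11.1% in KO. ATP6 made up 9.59, 9.49 and 10.4% in control against 10.8, 10.98 and 11.1% in KO. ND2 and ND6, the other 2 that were higher, made up 1.66, 2.40 and 3.11% in control against 3.84, 3.27 and 4.30% in KO for ND2 and 0.644, 1.06 and 1.45% in control against 1.88, 1.73 and 2.21% in KO for ND6. COX1, the largest share, overlapped, with 27.9, 28.8 and 23.9% in control against 23.2, 24.4 and 23.5% in KO. In each of the 7 genes control replicate 3 was the control library nearest to KO.

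**Figure D4:**
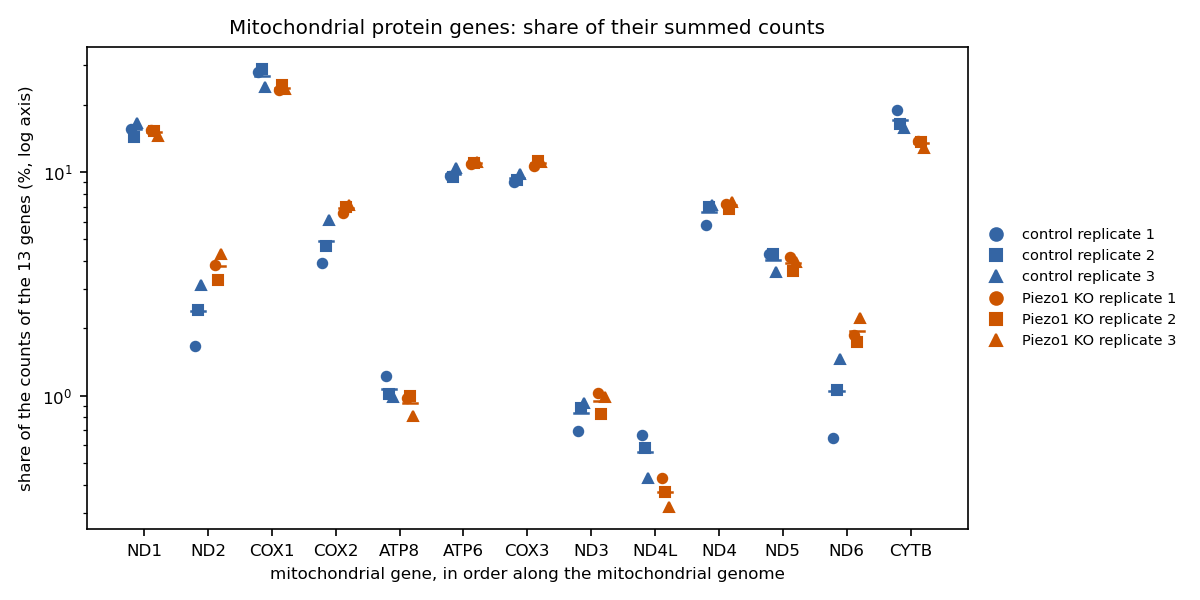
Share (%, log axis) of each mitochondrial gene in the summed counts of the 13 genes, in genome order, with each library as a point and the group mean as a bar. The KO points lie above all control points for ND2, COX2, ATP6, COX3 and ND6 and below them for ND4L and CYTB, with control replicate 3 nearest to KO in each.

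Ratios between single mitochondrial genes also need no size factor. The log2 ratio of ND6 to ND5, the facing pair, was -2.73, -2.02 and -1.30 in control against -1.15, -1.06 and -0.84 in KO. That of ND4L to ND4, which overlap with no tRNA between them, was -3.11, -3.57 and -4.04 in control against -4.07, -4.21 and -4.52 in KO. That of COX2 to COX1 was -2.84, -2.63 and -1.96 in control against -1.82, -1.81 and -1.72 in KO. That of ATP8 to ATP6, which also overlap with no tRNA between them, was -2.96, -3.23 and -3.40 in control against -3.47, -3.47 and -3.77 in KO. With no tRNA to mark a cut, the ratios of ND4L to ND4 and ATP8 to ATP6 need not compare separate transcripts. The part of read assignment in them was not tested. The 4 pairs share libraries, were picked and looked at after the levels were known, and carry no test. In each of these 4 ratios the libraries of the 2 groups did not overlap, though ND4L to ND4 left control replicate 3 and KO replicate 1 close together. Among all 78 pairs of the 13 genes, 45 did not overlap between the groups, so these 4 pairs are not set apart by it.

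Other rows of the light strand were examined beside ND6. The summed level of the 8 light-strand tRNA rows was 162, 184 and 344 CPM in control against 362, 362 and 395 CPM in KO. That of the heavy-strand tRNA rows was 27.8, 30.4 and 41.5 CPM in control against 44.2, 36.9 and 38.3 CPM in KO, where the groups overlapped. Most of the first sum came from TrnS1, which lies next to COX1 on the opposite strand, with 126, 142 and 278 CPM in control against 284, 282 and 306 CPM in KO. TrnE, which lies beside ND6 on the same strand, had 5.69, 10.3 and 22.3 CPM in control against 28.6, 27.8 and 29.5 CPM in KO, with an edgeR adjusted p of 0.451. Not all of the 8 rows rose: TrnP and TrnQ overlapped between the groups, with log2 fold changes of 0.28 and -0.29. In the others all KO libraries lay above all control libraries, as they did in 10.7% of all genes tested. The lowest edgeR adjusted p of these rows was 0.448, that of TrnC. Apart from TrnS1 they lay at low levels, from 3.34 to 29.5 CPM. Of all counts, mitochondrial rRNA rows took 0.766, 0.941 and 1.48% in control against 1.34, 1.64 and 1.38% in KO. Control replicate 3 lay within the KO range there too. The part of the counting strand in these values was not tested.

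Set against each other within a library, mitochondrial counts lay higher relative to nuclear ones in the KO libraries, overall and in complexes I and V. The log2 ratio of the 13 mitochondrial genes to the nuclear members was 0.091, 0.27 and 0.28 in control against 0.40, 0.45 and 0.40 in KO. For complex I it was -0.091, 0.18 and 0.27 in control against 0.44, 0.37 and 0.42 in KO, and for complex V -1.41, -1.37 and -1.05 in control against -0.95, -0.84 and -0.92 in KO. In these 3 ratios all KO libraries lay above all control libraries. The mean differences of KO from control were 0.20, 0.29 and 0.37 on the log2 scale. For complex III the ratio was 0.83, 0.81 and 0.77 in control against 0.73, 0.81 and 0.66 in KO, and for complex IV 1.10, 1.44 and 1.09 in control against 1.25, 1.36 and 1.29 in KO. Both overlapped, with mean differences of -0.072 and 0.089. No p-value is given for a score over chosen members. The ratio is dominated by abundant genes: with each gene weighted equally, by mean log2 level, the complex IV difference was 0.32 and that of complex V 0.15.

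**Figure D5:**
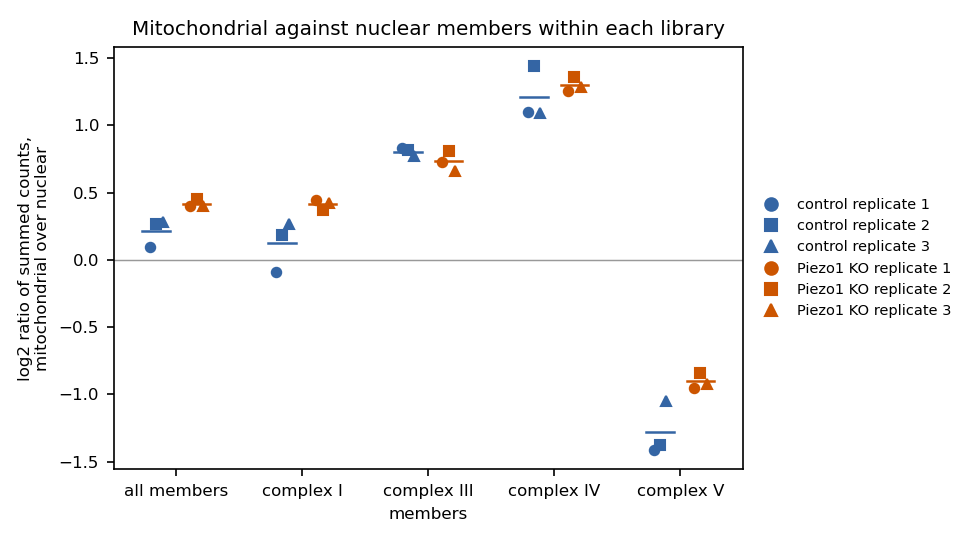
Log2 ratio of summed counts, mitochondrial over nuclear members, for all members and for complexes I, III, IV and V, with each library as a point and the group mean as a bar. KO points lie above all control points for all members, complex I and complex V, and overlap them for complexes III and IV.

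Genes that serve the chain without being part of it were counted from 10 lists drawn up with earlier results of these data known; 0 of their members passed an adjusted p under 0.05 in edgeR. In the citric acid cycle, which supplies NADH and succinate, 15 of 18 tested genes were negative, the median log2 fold change was -0.38, 7 were lower and 0 higher at an unadjusted p under 0.05, and 10 had KO libraries below all control libraries. Over all 16022 genes 47.8% were negative, 5.59% were lower and 5.44% higher at that threshold, and 8.76% lay below all control libraries, and the counts of all 10 lists are to be read against these shares. The 7 lower genes became 4 without control replicate 1, 6 without control replicate 2, 9 without control replicate 3 and 3 without any of the KO replicates, 4 with the replicate block and 3 with the length and GC offsets. Idh3a, a subunit of the NAD-dependent isocitrate dehydrogenase, had 319, 219 and 198 CPM in control against 139, 135 and 136 CPM in KO. Its log2 fold change was -0.84 (SE 0.21), with an adjusted p of 0.267 in edgeR and 0.00738 in DESeq2. Mdh2, the mitochondrial malate dehydrogenase, had 780.4, 632 and 691 CPM in control against 518, 471 and 431 CPM in KO and a log2 fold change of -0.57 (SE 0.15).

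Assembly factors build the complexes from their subunits. Of 19 tested factors of complex I, 15 were negative, 4 were lower and 0 higher at an unadjusted p under 0.05, and the median was -0.25. Against the 5.59% of all genes that were lower, the 4 became 2 without control replicate 1 or without KO replicate 3, and 11 factors were negative with the length and GC offsets. Ecsit, of the complex that assembles the membrane arm, had 54.9, 68.5 and 40.03 CPM in control against 31.5, 17.1 and 16.6 CPM in KO, with a log2 fold change of -1.33 (SE 0.35). Ndufaf4, an early factor of the matrix arm, had 132, 91.6 and 148 CPM in control against 80.8, 70.99 and 72.1 CPM in KO and a log2 fold change of -0.73 (SE 0.21). For complex II, with 3 of 4 negative and 1 lower, the flavin-inserting factor Sdhaf2 showed a log2 fold change of -0.47 (SE 0.16) and Sdhaf1 of -0.34 (SE 0.25). For complex III, with 3 of 6 negative and 1 lower, Uqcc1 had -0.57 (SE 0.23) and the Rieske protein translocase Bcs1l -0.36 (SE 0.27).

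For complex IV, 15 of 25 factors were negative, with 1 lower and 0 higher at an unadjusted p under 0.05. Sco2, a copper chaperone that loads COX2, had 41.5, 36.9 and 19.9 CPM in control replicates 1, 2 and 3 and 9.14, 7.84 and 4.18 CPM in KO replicates 1, 2 and 3. The groups did not overlap, control replicate 3 lay nearest to KO, and the log2 fold change was -2.22 (SE 0.44), with an adjusted p of 0.255 in edgeR and 0.000168 in DESeq2. Cox19, a copper-handling factor, showed a log2 fold change of -0.45 (SE 0.20). For complex V all 5 factors were negative with 2 lower and a median of -0.27. With the length and GC offsets all 5 stayed negative, with a median of -0.038 and 1 lower. Atpaf2, which assembles F1, had 92.9, 78.9 and 71.9 CPM in control against 54.2, 35.8 and 40.2 CPM in KO. Its log2 fold change was -0.90 (SE 0.23). Tmem70, which helps to build the subunit c ring, had 192, 118 and 138 CPM in control against 123, 92.5 and 64.8 CPM in KO and a log2 fold change of -0.68 (SE 0.29).

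Of the electron carrier genes 13 of 19 were negative with a median of -0.20, 1 was lower and 0 higher. Hccs, the haem lyase of cytochrome c, had 42.6, 36.9 and 36.4 CPM in control against 27.96, 26.01 and 23.7 CPM in KO and a log2 fold change of -0.58 (SE 0.22), and Coq6 of ubiquinone synthesis had -0.56 (SE 0.25). For upkeep and transcription of mitochondrial DNA, 12 of 18 were negative with 2 lower. The nuclease gene Mgme1 showed a log2 fold change of -0.91 (SE 0.27) and the transcription factor gene Tfb2m -0.67 (SE 0.26). Of 23 genes for processing and stability of mitochondrial RNA 17 were negative, with a median of -0.29, 5 lower and 0 higher, where 5.59% of all genes were lower. The 5 became 2 without control replicate 1, 3 without KO replicate 1, and 7 without control replicate 2 or without control replicate 3. Fastkd2, an RNA-binding protein of mitochondrial RNA granules, had 82.3, 73.1 and 83.2 CPM in control replicates 1, 2 and 3 and 40.1, 40.5 and 36.4 CPM in KO replicates 1, 2 and 3. The groups did not overlap, the log2 fold change was -1.03 (SE 0.17), and the adjusted p was 0.255 in edgeR and 1.14e-07 in DESeq2. Hsd17b10, a subunit of the mitochondrial RNase P, had 259, 227 and 271 CPM in control against 165, 195 and 174 CPM in KO and a log2 fold change of -0.50 (SE 0.15).

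Regulators of mitochondrial biogenesis had 5 of 12 negative, a median of 0.17, 0 lower and 1 higher at an unadjusted p under 0.05. The higher gene was Pprc1, a coactivator of NRF1 related to PGC-1, with 20.2, 31.1 and 27.1 CPM in control against 43.5, 33.2 and 49.3 CPM in KO and a log2 fold change of 0.68 (SE 0.27). Myc, which drives growth and mitochondrial gene expression, had 334, 318 and 221 CPM in control against 198, 215 and 233 CPM in KO and a log2 fold change of -0.43 (SE 0.20). For the lists with 1 or 2 lower or higher genes, leaving out 1 library gave 0 to 4 lower and 0 to 2 higher.

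The libraries also differed in markers of other cells, which the members were read beside. Of the lists examined, erythroid, megakaryocyte and T and NK markers did not overlap between the groups, the last with all 7 genes counted and sums of 129 to 209 CPM in control and 246 to 281 CPM in KO. B cell markers, all 7 counted, summed to 31.1 to 89.1 CPM in control and 33.7 to 38.1 CPM in KO. Markers of monocytes, macrophages and dendritic cells, 6 of 8 counted with Siglech and Itgax at 0, summed to 15.4 to 244 and 15.1 to 46.5 CPM. Stromal and endothelial markers, 5 of 7 counted with Lepr and Cdh5 at 0, summed to 35.8 to 57.5 and 48.2 to 56.9 CPM. In these bulk libraries a different share of a cell type and a different amount of RNA per cell cannot be told apart. The part of other cells in the values of the respiratory chain was not tested.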

How the data were processed

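LT-HSC RNA was extracted with TRIZOL, and libraries came from a TruSeq RNA kit of unstated strandedness, per the labels' protocols. The authors deposited unnormalized whole-number counts, with 47561 gene rows for each library. Per the submitters' processing notes the tools were HISAT2 2.1, featureCounts 1.6.4, cutadapt 1.16.5, bcl2fastq 2.19 and DESeq2 2.11.40.6 on mm10; settings are not stated there, nor is the handling of multiply mapped reads. Of the members, 14 (the 13 mitochondrial genes and Cox6c2) are on rows with assembler identifiers, of which each table holds 2046. Groups follow the titles (Piezo1 KO), although the genotype fields of 2 KO libraries, replicates 2 and 3, carry Piezo2 and Piezo3.

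Members and lists were chosen with earlier results of these data known. Counts of all 6 libraries were fitted in R 4.3.3 with edgeR 4.0.16 (filterByExpr by group, TMM, quasi-likelihood F test), with Benjamini-Hochberg adjustment over 16022 genes and a threshold of 0.05. The SE of a log2 fold change is its size divided by the square root of F, so it is not independent of the test. A biological coefficient of variation of 0.755 was estimated over all genes. The alternatives were DESeq2 1.42.0, limma-voom (limma 3.58.1), other size factors and filters, the replicate number as a block, length and GC offsets, and each library left out. Lengths are from GENCODE M21 transcripts and were found for 97 members and 91.2% of tested genes. Named genes were the 13 mitochondrial genes, the 3 nuclear members per complex with the smallest p at 5 CPM or more, sets of isoforms, the highest and lowest fold change per genome and 2 genes per list; other members are named as examples chosen after their values were seen. No pair of libraries was alike within sampling noise (chi-square per gene at least 110). In counts simulated for 15155 genes of this comparison, 4 of 50 genes changed 2-fold, 30 of 50 changed 4-fold, 39 of 50 changed 8-fold and 47 of 50 changed 16-fold were recovered, with 5 unchanged genes called. Most 2-fold changes were thus missed among these genes, drawn at random from those with a mean of 5 CPM or more. The members were not simulated apart.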

Additional observations from a re-analysis of the deposited data

How the results depend on the processing

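Of 942 values of the 59 named genes under alternatives, 894 kept their direction and side of the threshold, 36 turned their direction in 15 genes, and 12 passed the threshold, all in DESeq2. For all genes DESeq2 called 373 higher and 388 lower, the filter of 5 CPM in 3 libraries called 1 lower, and leaving out 1 library called 0 to 1 higher. At an unadjusted p under 0.05, DESeq2 gave 1401 higher and 1427 lower of 21862 genes. Leaving out 1 library gave 562 to 1339 higher and 573 to 1299 lower. DESeq2 called 3 nuclear members lower, and at its unadjusted p 9 nuclear members lower and, of the mitochondrial ones, 2 higher and 1 lower. Nuclear members higher at an unadjusted p numbered 4 with length and GC offsets and 3 with those and the replicate block. With 1 library left out they numbered 0 to 5 (5 without control replicate 3). Lower ones then numbered 2 to 14. The 14 of 80 were found without control replicate 2, where 963 of 16912 genes were lower. Mitochondrial members higher numbered 2 with the stricter filter, 3 in limma-voom, 2 with the replicate block, 4 with the offsets and 4 with both. They numbered 0 to 7 with 1 library left out (7 without control replicate 3). Lower ones numbered 1 in limma-voom and 0 to 1 with 1 library left out. Over all genes, higher ones numbered 756 of 10914 with the stricter filter and, of 16022, 1209 in limma-voom. Of the same 16022, they numbered 835 with the replicate block, 806 with the offsets and 721 with both. Without control replicate 3 they numbered 1339 of 17038. In limma-voom 1022 of 16022 genes were lower. The complex III median ranged from -0.32 (without control replicate 2) to 0.17 (without control replicate 3), and the mitochondrial median from 0.045 to 0.46. Between the same omissions the nuclear medians ran from -0.23 to 0.13 in complex I, -0.21 to 0.22 in IV and -0.20 to 0.15 in V. With the length and GC offsets they were 0.024 in complex I, 0.073 in IV and 0.059 in V. With mean log2 counts per gene the ratio of mitochondrial to nuclear members differed by 0.32 in complex IV and 0.15 in complex V. With length and GC offsets the list medians were -0.074 for complex I assembly and -0.047 for electron carriers. With 1 library left out they were -0.43 to -0.21 and -0.39 to -0.11, and for complex V assembly -0.61 to -0.18, upkeep of mitochondrial DNA -0.29 to -0.069 and processing of mitochondrial RNA -0.47 to -0.25. These list values were added after the data were seen.

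With length and GC offsets, then with the replicate block as well, CYTB was at 0.021 and 0.032, COX1 at 0.20 and 0.22 and Cox6b1 at 0.15 and 0.16. Cox6b1 was at 0.026 in limma-voom and 0.018 with the replicate block, and Cox7b at -0.011 with RLE size factors, -0.013 with upper-quartile factors, -0.011 with no filter and -0.0047 in DESeq2. With 1 library left out, mostly control replicate 2 or 3 at the ends, log2 fold changes ranged as follows: ND1 -0.14 to 0.31, ND5 -0.035 to 0.16, COX1 -0.14 to 0.038, ATP8 -0.26 to 0.032, Cox6b2 -0.44 to 0.19, Cox4i1 -0.23 to 0.15, Cox6a1 -0.33 to 0.22, Cox6b1 -0.24 to 0.23, Cox7a1 -1.48 to 1.06, Cox7a2 -0.082 to 0.26, Cox7b -0.19 to 0.22, Cox8a -0.071 to 0.35, Atp5g2 -0.010 to 0.20 and Atp5g3 -0.031 to 0.46. The causes were not tested. Same-numbered libraries of the 2 groups deviated together only slightly, with correlations of 0.038, 0.016 and 0.033, so they are taken to share only a number, although every library correlated best with its own number. With the replicate block 3 nuclear members were lower at an unadjusted p under 0.05, against 762 of 16022 genes. The nuclear median was then -0.033. Depth was even across libraries. Most 2-fold changes were missed in the simulation with 3 libraries a group, which drew on genes of all kinds and did not treat the members apart.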
